A study of Homo sapiens with 4 samples.

Results

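The transcripts of 36 aminoacyl-tRNA synthetases were followed in HT29, an established cell line from a human colorectal adenocarcinoma, after a short exposure to fluorouracil. The genes were chosen by exact symbol from the deposited expression table, in which each of the 36 has a row, among 29995 symbols in all; 20 encode the cytosolic enzymes and 16, with symbols ending in 2, the mitochondrial enzymes. Total RNA was sequenced from cells kept with 100 µM fluorouracil (labelled 5Fu or 5FU) for 2 h and from untreated HT29 cells, with 2 libraries of each. All cells grew in DMEM with fetal calf serum, the labels name no vehicle for the untreated cells, and they do not say whether libraries came from separate cultures, so the spread between libraries may be technical. Fluorouracil is a pyrimidine analogue given to patients with colorectal cancer, which blocks thymidylate synthase and is also built into RNA.

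An aminoacyl-tRNA synthetase joins an amino acid to the tRNA that carries the matching anticodon, which is the step at which the genetic code is read into protein. Most amino acids have a cytosolic and a mitochondrial enzyme from separate nuclear genes, while GARS and KARS each encode the enzyme of both compartments. When amino acids run short or eIF2 is phosphorylated, the transcription factor ATF4 is translated and raises many cytosolic synthetase genes together with genes of amino acid synthesis and transport; the mitochondrial synthetases are not usually counted among its targets. The mitochondrial set therefore serves as an internal comparison for the cytosolic set.

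ATF4 binds composite elements with the core TGATGNAA, and the promoters were read for these letters because the cytosolic set is the one linked to that factor. In RefSeq windows of 300 bases on GRCh38.p14, from 250 bases before to 50 after each start, 16 of 20 cytosolic and 14 of 16 mitochondrial genes had an entry; DARS, LARS, VARS, YARS, AARS2 and VARS2 were not matched. The motif, searched on both strands, stood in 6 of the 16 cytosolic windows and in 1 of the 14 mitochondrial ones, against 3.67% of 27305 windows of the same length over all genes. All 6 cytosolic matches were TGATGCAA or its reverse complement TTGCATCA, which 0.923% of all windows hold. The 7 matches are shown 5′ to 3′ on the strand of the gene, with the matched letters in capitals and 11 bases on each side.
AARS, chr16:70289675-70289704, minus strand: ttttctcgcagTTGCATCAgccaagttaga
CARS, chr11:3057407-3057436, minus strand: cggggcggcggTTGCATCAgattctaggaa
IARS, chr9:92293692-92293721, minus strand: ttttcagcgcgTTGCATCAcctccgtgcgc
MARS, chr12:57488053-57488082, plus strand: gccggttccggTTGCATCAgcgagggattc
NARS, chr18:57621804-57621833, minus strand: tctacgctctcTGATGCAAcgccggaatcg
TARS, chr5:33440956-33440985, plus strand: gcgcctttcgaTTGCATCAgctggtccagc
YARS2, chr12:32756076-32756105, minus strand: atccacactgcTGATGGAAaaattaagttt
A match is a description of these letters only, and a window without one says nothing of whether ATF4 binds elsewhere.

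Each library gives 1 FPKM value per gene, which corrects the number of fragments for the length of the transcript and the size of the library. Fluorouracil replicate 2 stands apart from the other 3 libraries. Its correlation with them over 12460 tested genes on the log2 scale was 0.704 to 0.716, whereas the other 3 had 0.960 to 0.980 among themselves. Its FPKM summed to 764861, against 440558 in fluorouracil replicate 1 and 434628 and 427007 in the untreated libraries. Results are therefore given for each treated library. Of 10 colon epithelial markers 8 had at least 1 FPKM in every library, while CDX1 and CDX2 stayed below 1 FPKM in all 4; of 10 markers of other cell types 9 were below 1 FPKM in every library, CD68 being the exception. The summed FPKM of those 10 was 10.9 and 25.6 in fluorouracil replicates 1 and 2, against 9.80 and 8.87 in the untreated libraries. Nearly all of it was CD68, at 10.4 and 25.1 FPKM treated, against 9.63 and 8.65 FPKM untreated. The colon epithelial sum was 7173 and 15796 FPKM treated, against 7059 and 7445 FPKM untreated. The part of these sums in the results was not tested. These are bulk values, in which fewer cells with a transcript and less of it per cell cannot be told apart.

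Cytosolic synthetases were abundant and mitochondrial ones less so. The untreated means ran from 21.9 ± 0.432 FPKM for HARS to 151 ± 4.08 FPKM for TARS in the cytosolic set (SD, n = 2), and from 3.87 ± 0.228 FPKM for PARS2 to 43.3 ± 3.26 FPKM for IARS2 in the mitochondrial set. TARS charges threonine, HARS histidine, PARS2 proline and IARS2 isoleucine. In each of 17 pairs for the same amino acid the cytosolic gene had the higher untreated level per length, by 1.19 times for HARS over HARS2 up to 19.4 times for EPRS over PARS2, with a median of 5.39. Summed FPKM of the 20 cytosolic genes was 1291 and 1603 in fluorouracil replicates 1 and 2, against 1270 and 1346 in untreated replicates 1 and 2. Summed FPKM of the 16 mitochondrial genes was 223 and 263 in the treated libraries, against 229 and 236 in the untreated ones. Fluorouracil replicate 1 lay inside the untreated range in the cytosolic sum and below it in the mitochondrial sum, and replicate 2 lay above it in both. As a share of all FPKM in the library, the cytosolic sum was 0.293% and 0.210% in the treated libraries, against 0.293% and 0.316% in the untreated ones, so on that scale fluorouracil replicate 2 was the lowest.

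**Figure D1:**
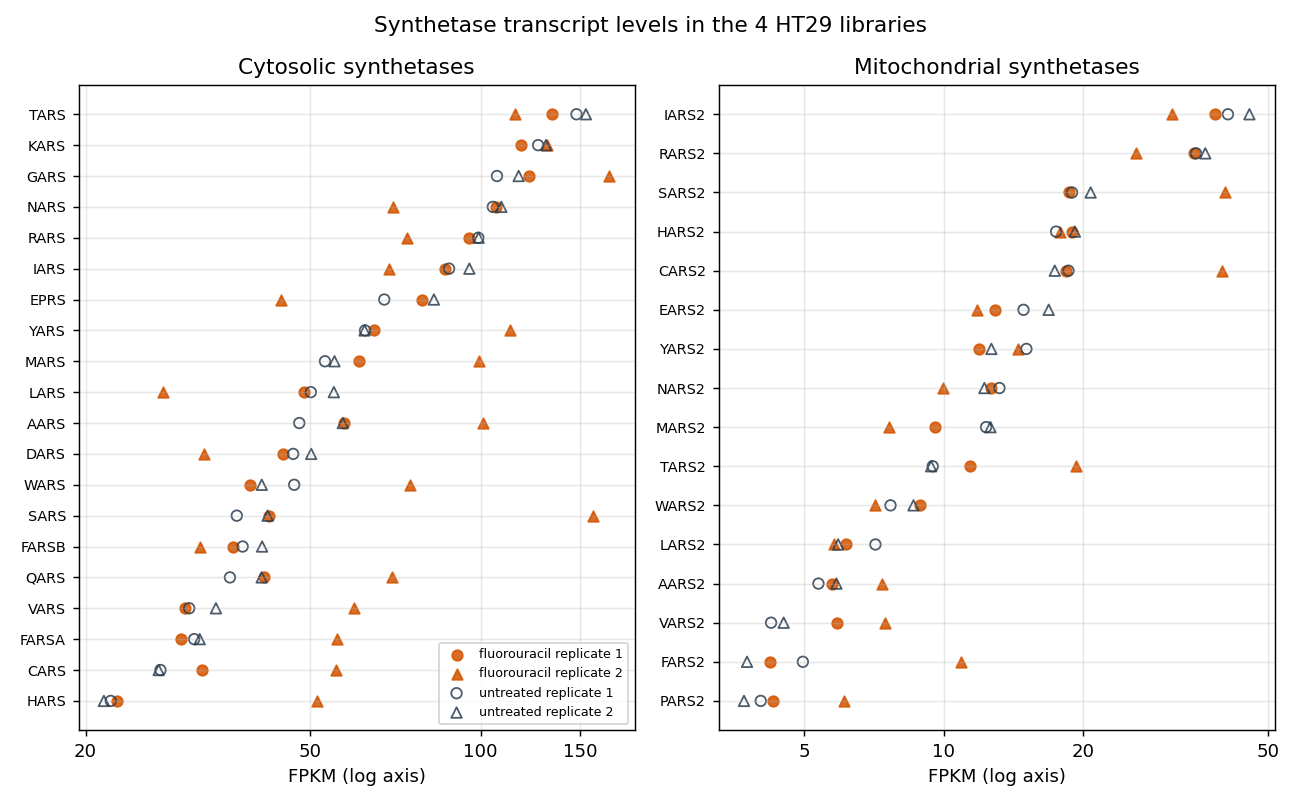
FPKM of the 20 cytosolic (left) and 16 mitochondrial (right) synthetases on a log axis, genes ordered by untreated mean; filled orange marks are fluorouracil replicates 1 (circle) and 2 (triangle), open dark marks untreated replicates 1 and 2. The circles of fluorouracil replicate 1 lie close to the open marks for nearly every gene, while the triangles of replicate 2 lie to the right in some genes (SARS at 158 FPKM) and to the left in others (LARS at 27.5 FPKM).

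After 2 h of fluorouracil no synthetase passed the test in either direction. Fluorouracil was set against untreated cells by limma on log2(FPKM + 0.1) over the 12460 genes whose mean reached 1 FPKM, a filter that all 36 synthetases passed. With Benjamini-Hochberg adjustment, 0 of 12460 genes reached an adjusted p below 0.05 (percent called 0.0), and 400 genes (3.21%) reached an unadjusted p below 0.05. None of the 36 synthetases reached even an unadjusted p below 0.05; the smallest was 0.118, for VARS2. The limma adjusted p was from 0.671 to 0.995 over the 36 genes. For 1 gene taken alone, 2 libraries against 2 allow a smallest two-sided p of 0.333 in an exact permutation test.

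Both treated libraries exceeded both untreated ones for 8 of 20 cytosolic synthetases and lay below them for 6, where 24.4% of all tested genes were higher and 19.3% lower in this sense. The 8 were AARS, CARS, GARS, HARS, MARS, QARS, SARS and YARS, and the 6 were DARS, IARS, LARS, RARS, TARS and FARSB. Of the 16 mitochondrial synthetases, PARS2, TARS2 and VARS2 were higher and EARS2, IARS2, MARS2 and RARS2 lower. The median log2 change over both treated libraries was 0.33 in the cytosolic set and -0.01 in the mitochondrial set, beside 0.10 over all tested genes; the cytosolic median was below 0, at -0.06, once the trend of each library with GC content and length was taken out, and at -0.10 with all libraries scaled to 1 sum of FPKM, a scaling that put the median of all genes at -0.32. These medians come from unlike libraries. In fluorouracil replicate 1 the cytosolic median was -0.03 and the mitochondrial one -0.02, beside 0.01 over all genes, and in replicate 2 they were 0.69 and 0.01, beside 0.19. The cytosolic set lay above the mitochondrial set in replicate 2 alone, and without that library the difference of the medians was -0.01, against 0.35 with it.

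In fluorouracil replicate 1 the synthetases differed little from untreated cells. All 36 log2 changes against the untreated mean lay between -0.38 (MARS2) and 0.42 (VARS2), and those of the cytosolic genes between -0.17 (TARS) and 0.25 (CARS), while the 5th and 95th percentiles of all tested genes were -0.55 and 0.79. For 21 of the 36 genes the 2 untreated libraries differed from each other by more than this treated library differed from their mean. In fluorouracil replicate 2 the changes ran from -0.93 (LARS) to 2.00 (SARS), while the 5th and 95th percentiles of all tested genes were -2.39 and 2.15. There 22 of 36 synthetases exceeded 0.5 in size. Over all tested genes the median size of the log2 difference from untreated replicates 1 and 2 was 0.857 and 0.869. Both treated libraries are measured against the same untreated mean, so their changes are not independent of each other.

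**Figure D2:**
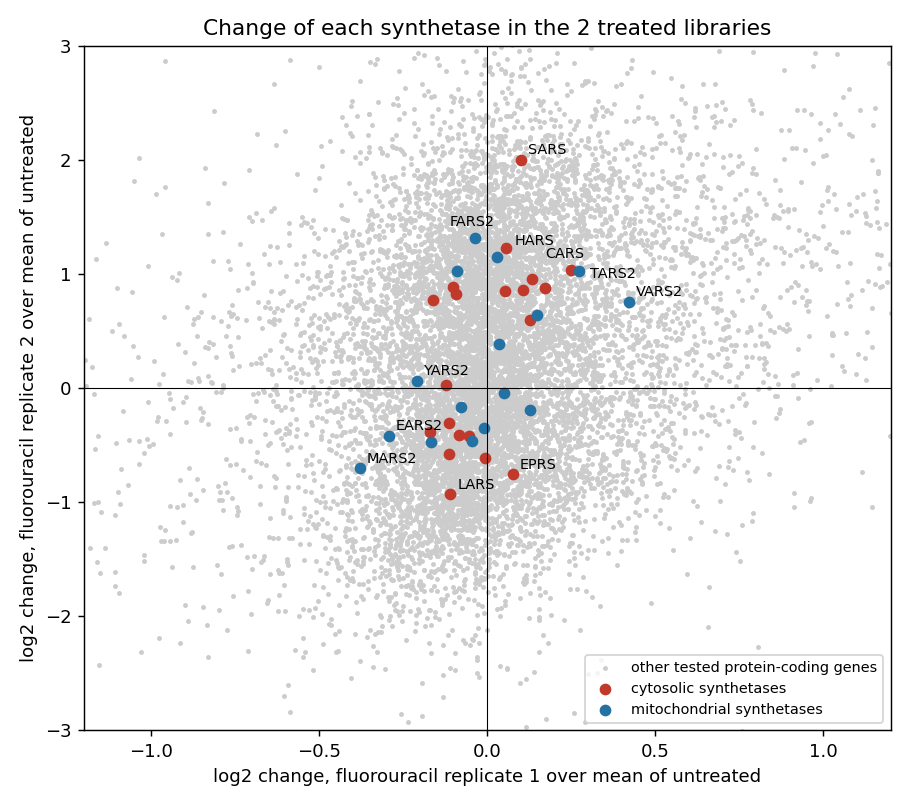
Log2 change of each gene in fluorouracil replicate 1 (horizontal) and replicate 2 (vertical), each over the mean of the 2 untreated libraries; red points are cytosolic and blue points mitochondrial synthetases, grey points the other tested protein-coding genes, and genes beyond the axes are not drawn. The synthetases stay within -0.38 and 0.42 along the horizontal axis and spread from -0.93 to 2.00 along the vertical axis.

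Among the cytosolic enzymes with higher treated values, SARS, which charges serine tRNAs and, as a first step of selenoprotein synthesis, the selenocysteine tRNA, had the widest range. SARS (chr1:109213918-109238169, plus strand, GENCODE 29 on GRCh38) measured 42.3 and 158 FPKM in fluorouracil replicates 1 and 2, against 37.0 and 42.0 FPKM in untreated replicates 1 and 2. The first treated value lay just above the untreated range and the second was 4.01 times the untreated mean. The log2 change was 1.05 (SE 0.71, limma adjusted p = 0.671). HARS had 22.7 and 51.3 FPKM in the treated libraries, against 22.2 and 21.6 FPKM in the untreated ones, so that fluorouracil replicate 1 was close to untreated cells and replicate 2 was not (log2 change 0.64, SE 0.48, limma adjusted p = 0.671).

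The mitochondrial histidine enzyme, HARS2, stands head to head with HARS on chromosome 5, and the RefSeq starts of the 2 genes lie 85 bases apart. The 84 bases between the starts are shown because both genes read away from them; the strand is that of HARS2, chr5:140691371-140691454 on GRCh38.p14, and the run holds no TGATGNAA.
HARS and HARS2: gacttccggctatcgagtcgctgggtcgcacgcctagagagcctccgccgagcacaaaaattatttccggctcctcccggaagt
HARS2 had 19.0 and 17.8 FPKM in the treated libraries and 17.5 and 19.2 FPKM in the untreated ones, so its groups overlapped. In fluorouracil replicate 2 the log2 change of HARS exceeded that of HARS2 by 1.27, and in replicate 1 by 0.0055. Exons of the 2 genes overlap in the annotation and no source says that strand was used in counting, so reads of the overlap could have been split between them. In all, 17 of the 36 synthetases have exons that overlap a gene on the other strand.

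CARS, the cysteine enzyme, had the largest log2 change of the cytosolic set in fluorouracil replicate 1. It measured 32.1 and 55.4 FPKM in the treated libraries, against 27.1 and 26.9 FPKM in the untreated ones (log2 change 0.64, SE 0.38, limma adjusted p = 0.671). Both treated values lay above the untreated pair, which was itself tight. MARS, the methionine enzyme that also charges the initiator tRNA, had 60.9 and 99.5 FPKM treated and 53.1 and 55.2 FPKM untreated (log2 change 0.52, SE 0.37, limma adjusted p = 0.671). Its groups did not overlap, and its exons overlap those of DDIT3 on the other strand, an integrated stress response gene that measured 28.1 and 51.8 FPKM treated and 17.5 and 16.9 FPKM untreated. AARS, the alanine enzyme, had 57.2 and 101 FPKM treated, against 47.8 and 57.1 FPKM untreated; its first treated value only just cleared the second untreated one. QARS, for glutamine, had 41.4 and 69.7 FPKM treated and 36.02 and 41.0 FPKM untreated, and YARS, for tyrosine, 64.8 and 113 FPKM treated and 62.5 and 62.3 FPKM untreated. GARS, for glycine, had 122 and 169 FPKM treated, against 107 and 117 FPKM untreated.

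LARS, the leucine enzyme, which also senses leucine for mTORC1, had the lowest value of the cytosolic set relative to untreated cells in fluorouracil replicate 2. It measured 48.6 and 27.5 FPKM in the treated libraries, against 50.1 and 55.0 FPKM in the untreated ones (log2 change -0.52, SE 0.39, limma adjusted p = 0.671). Both treated values were lower, replicate 1 by little. EPRS, a fused enzyme for glutamate and proline, had 78.8 and 44.3 FPKM treated and 67.6 and 82.7 FPKM untreated, with replicate 1 inside the untreated range. TARS, the most abundant, had 134 and 115 FPKM treated, against 148 and 154 FPKM untreated. KARS, the next in level, overlapped, at 118 and 131 FPKM treated and 126 and 131 FPKM untreated. The remaining lower genes were DARS (aspartate), IARS (isoleucine), RARS (arginine) and FARSB, a subunit of the phenylalanine enzyme, with log2 changes from -0.35 to -0.21; NARS, VARS, WARS and FARSA, the other phenylalanine subunit, overlapped.

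Of the mitochondrial enzymes, MARS2, which charges methionine in the organelle, and VARS2, for valine, had the lowest and the highest log2 change of the 36 in fluorouracil replicate 1. MARS2 (chr2:197705369-197708387, plus strand) had 9.56 and 7.64 FPKM in the treated libraries, against 12.3 and 12.6 FPKM in the untreated ones (log2 change -0.54, SE 0.28, limma adjusted p = 0.671). Both treated values were lower than both untreated ones. Without fluorouracil replicate 2 its unadjusted limma p was 0.0444, the only one below 0.05 among the 36, where 14.7% of all genes were below 0.05, and its adjusted p was 0.328. In that fit 17 genes (0.136%) passed after adjustment, none of them a synthetase; 12 of the 36 synthetases lay above both untreated values and 16 below, where 39.0% and 36.4% of all genes did. VARS2 (chr6:30908242-30926459, plus strand) had 5.90 and 7.48 FPKM treated, against 4.24 and 4.52 FPKM untreated (log2 change 0.59, SE 0.30, limma adjusted p = 0.671).

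TARS2, for threonine, had 11.4 and 19.3 FPKM treated and 9.47 and 9.40 FPKM untreated (log2 change 0.65, SE 0.37, limma adjusted p = 0.671), while its cytosolic counterpart TARS had lower treated values. EARS2, for glutamate, had 12.9 and 11.8 FPKM treated and 14.9 and 16.8 FPKM untreated (log2 change -0.36, SE 0.27, limma adjusted p = 0.671). CARS2, for cysteine, overlapped, at 18.3 and 39.9 FPKM treated and 18.6 and 17.4 FPKM untreated. PARS2, the lowest in level, had 4.29 and 6.09 FPKM treated, against 4.03 and 3.71 FPKM untreated, and IARS2, the highest, 38.5 and 31.1 FPKM treated, against 41.0 and 45.6 FPKM untreated. The other 9 mitochondrial genes had overlapping groups except RARS2, for arginine, which had lower treated values of 34.7 and 25.9 FPKM, against 35.0 and 36.7 FPKM untreated.

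Comparing the enzymes for the same amino acid, the cytosolic gene had the higher log2 change in 9 of 17 pairs in fluorouracil replicate 1 and in 9 of 17 in replicate 2. The largest differences over both treated libraries were for methionine, where MARS exceeded MARS2 by 1.07 on the log2 scale, for threonine, where TARS minus TARS2 was -0.93, and for phenylalanine, where FARSB minus FARS2 was -0.85. In replicate 1 alone these differences were 0.55, -0.44 and -0.08. Which pairs differed most depended on the GC and length trend: without it the differences were 0.85 for MARS and MARS2, -0.36 for TARS and TARS2 and -0.07 for FARSB and FARS2, while HARS exceeded HARS2 by 0.88 and SARS exceeded SARS2 by 0.85. The cytosolic gene then had the higher change in 9 of 17 pairs in replicate 1 and in 12 of 17 in replicate 2. FARS2 itself had 4.21 and 10.9 FPKM treated and 4.97 and 3.77 FPKM untreated, so its groups overlapped.

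The changes in fluorouracil replicate 2 went with the GC content of the transcripts, and less closely with their length. Across the 36 synthetases, the log2 change in that library had a Pearson correlation of 0.74 with the GC content of the longest annotated transcript, against 0.30 in fluorouracil replicate 1. Across 10965 tested protein-coding genes the same correlations were 0.57 and 0.04. With log2 transcript length the correlation in replicate 2 was -0.38 across the 36 and -0.39 across the 10965 genes. Genes are not independent replicates and share the library, so these are descriptions. Of the 18 synthetases at or above 50% GC, 16 had a positive change in replicate 2, beside 4577 of 5127 tested protein-coding genes. Of the 18 below 50% GC, 14 had a negative one, beside 3981 of 5838. Cytosolic genes below 50% GC had a median change of -0.41 in replicate 2 and those at or above 50% one of 0.88, beside -0.39 and 1.02 over all tested protein-coding genes. LARS, DARS and RARS have 41.2% to 41.5% GC. VARS, at 62.6% GC, had 29.999 and 59.8 FPKM in the treated libraries, against 30.5 and 34.02 FPKM in the untreated ones. FARSA, at 60.3% GC, had 29.5 and 55.8 FPKM in the treated libraries, against 31.1 and 31.8 FPKM in the untreated ones.

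**Figure D3:**
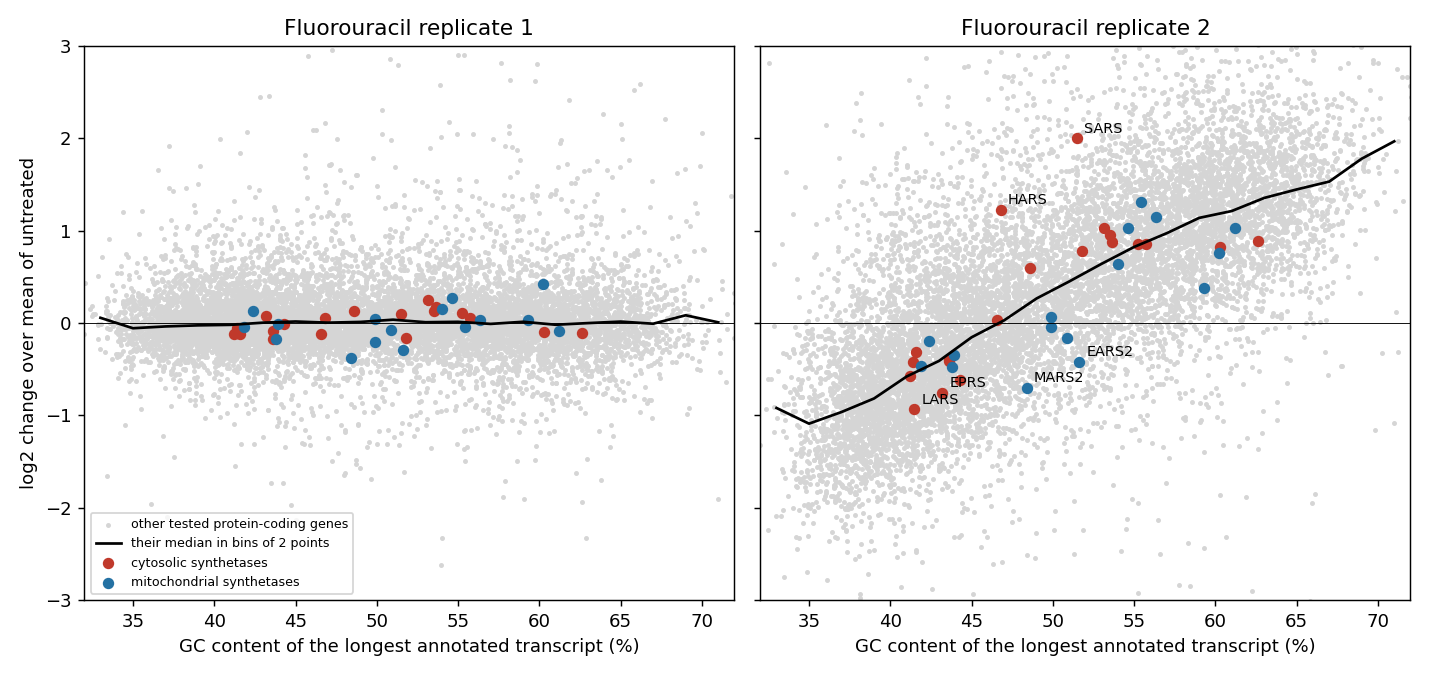
Log2 change over the untreated mean in fluorouracil replicate 1 (left) and replicate 2 (right) against transcript GC content in percent; red points are cytosolic and blue points mitochondrial synthetases, grey points the other tested protein-coding genes, the black line their median in bins of 2 percentage points, and genes beyond the axes are not drawn. In replicate 2 the synthetases rise along the line, with SARS at 2.00 and HARS at 1.23 above it. MARS2 at -0.70 lies below it, as do other mitochondrial genes such as EARS2 at -0.42. In replicate 1 the line stays near 0.

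Once the trend of each library with GC content and length was taken out, the cytosolic set no longer stood above untreated cells. Its median log2 change was -0.06, with -0.06 in fluorouracil replicate 1 and -0.02 in replicate 2, and the mitochondrial median was -0.23, with -0.06 and -0.32. The same medians over the 10965 genes were -0.04, -0.04 and -0.07. After this step 3 of 20 cytosolic synthetases had higher and 9 lower values in both treated libraries, and 1 and 7 of 16 mitochondrial ones, where 18.8% of all genes were higher and 28.7% lower. Higher values before and after the step were found in CARS, MARS, YARS and TARS2, and lower ones in DARS, IARS, LARS, RARS, TARS, EARS2, IARS2, MARS2 and RARS2. SARS and HARS kept log2 changes of 1.202 and 1.180 in replicate 2, beside 0.03 and 0.02 in replicate 1. The next cytosolic value in replicate 2 was 0.34, for CARS. By limma 0 of 10965 genes passed on these values, and 933 (8.51%) had an unadjusted p below 0.05, among them 1 synthetase, MARS2.

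**Figure D4:**
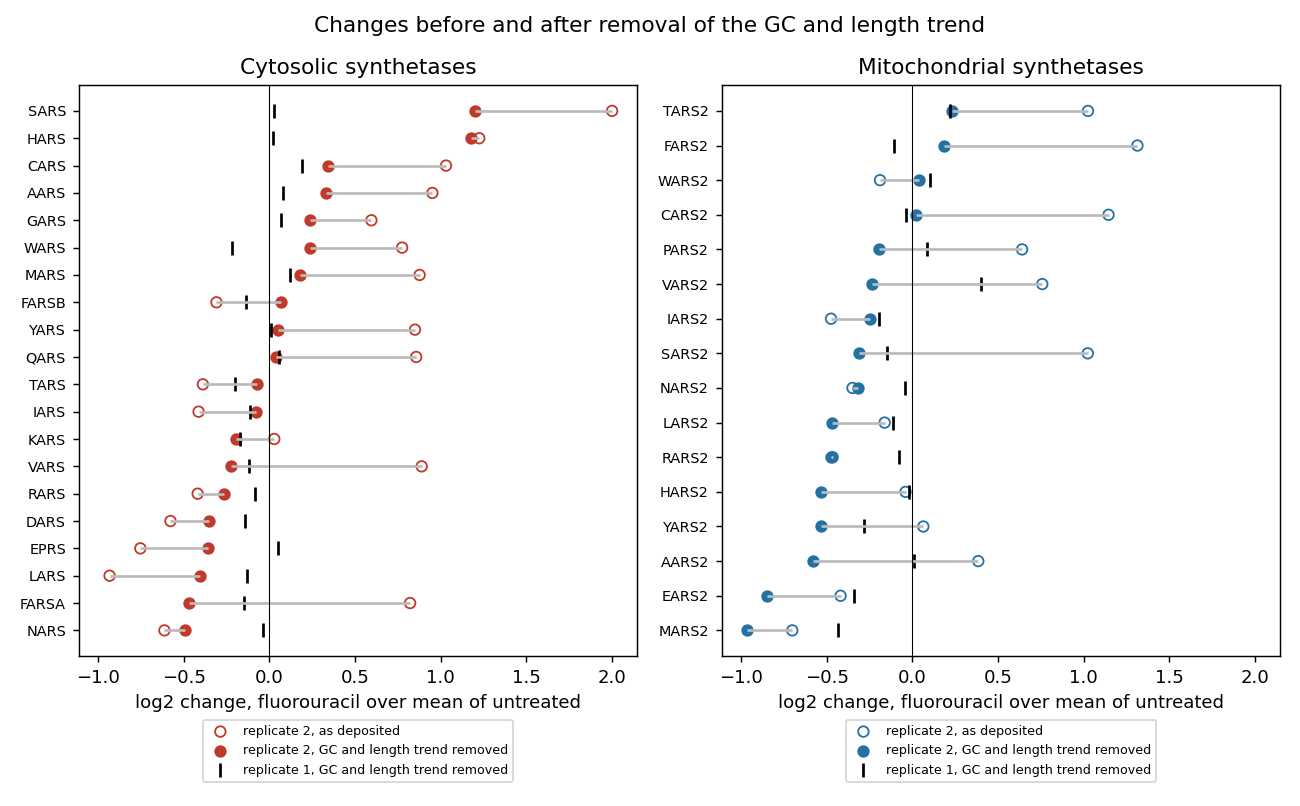
Log2 change of each synthetase over the untreated mean in fluorouracil replicate 2 as deposited (open circles) and without its GC and length trend (filled circles), joined by grey lines, and in replicate 1 with the trend removed (black ticks); cytosolic genes left, mitochondrial genes right. SARS and HARS remain at 1.202 and 1.180 in replicate 2, and most other cytosolic genes move towards 0. With the trend removed, 12 of the 16 mitochondrial genes lie below 0 in replicate 2, with MARS2 lowest at -0.97 and EARS2 at -0.85. The ticks of replicate 1 lie between -0.43 and 0.40.

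Grouping the cytosolic genes by what is known of them showed small differences in fluorouracil replicate 1. The 12 genes commonly listed as ATF4 targets (AARS, CARS, EPRS, GARS, IARS, LARS, MARS, NARS, SARS, TARS, WARS and YARS) had a median log2 change of 0.06 in replicate 1 and 0.69 in replicate 2, and the other 8 one of -0.10 and 0.43. Without the GC and length trend, the replicate 2 medians were 0.11 for the 12 and -0.21 for the 8. Of the 12, 6 had higher and 3 lower values in both treated libraries, and of the 8, 2 had higher and 3 lower, beside 24.4% and 19.3% of all genes. Without the trend these counts were 3 and 4 of the 12, and 0 and 5 of the 8, beside 18.8% and 28.7%. The 6 genes whose promoter window holds the motif shown above had changes from -0.17 to 0.25 in replicate 1 and from -0.61 to 1.03 in replicate 2. Of these 6, AARS, CARS and MARS had higher treated values in both libraries, and so did 4 of the 10 matched cytosolic genes without the motif, beside 24.4% of all genes. IARS, NARS and TARS, with the same letters near their starts, did not. No test was run on these groupings.

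The 8 subunits of the multisynthetase complex, in which enzymes assemble on scaffold proteins, had a median change of -0.07 in replicate 1 and -0.42 in replicate 2, and the 12 cytosolic genes outside it 0.02 and 0.84. MARS and QARS were the subunits with higher values in both treated libraries, beside 24.4% of all genes. DARS, IARS, LARS and RARS had lower ones, beside 19.3%. With the trend of GC and length removed, 1 of the 8 had higher and 5 lower values, beside 18.8% and 28.7%. QARS then overlapped and KARS was lower. Without the GC and length trend, the medians in replicate 2 were -0.23 inside and 0.16 outside the complex. Of its scaffolds, AIMP1 had 45.0 and 29.002 FPKM treated, against 48.3 FPKM in each untreated library, and AIMP2 had 31.3 and 53.8 FPKM treated, against 35.8 and 35.6 FPKM untreated. The third, EEF1E1, had 15.2 and 38.2 FPKM treated, against 17.9 and 16.4 FPKM untreated. None of the 3 passed the test (limma adjusted p from 0.671 to 0.798). Class I and class II enzymes, which differ in the fold of the catalytic domain, had medians of -0.07 and -0.01 in replicate 1 and of -0.05 and 0.60 in replicate 2, over 18 and 17 genes; EPRS joins one of each. Without the GC and length trend, the replicate 2 medians were -0.23 for class I and -0.19 for class II.

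Of 11 tested partner genes, which include scaffolds, tRNA editing factors and enzymes that modify charged tRNA, 2 had higher and 2 lower values in both treated libraries, and 0 had an unadjusted limma p below 0.05, beside 24.4%, 19.3% and 3.21% of all genes. The higher ones were PSTK, the kinase that acts on seryl-tRNA on its way to selenocysteine, with 4.81 and 7.26 FPKM treated, against 2.99 and 3.55 FPKM untreated, and MTFMT, which formylates the mitochondrial initiator, with 9.52 and 9.06 FPKM treated, against 7.15 and 7.91 FPKM untreated. The lower ones were AIMP1 and QRSL1, a subunit of the enzyme that makes mitochondrial glutaminyl-tRNA. The lowest log2 change of the list was that of GATC, another subunit of that enzyme, with 39.7 and 13.6 FPKM treated, against 40.1 and 35.8 FPKM untreated (log2 change -0.70). TARSL2, a gene outside the 36, overlapped, with 5.89 and 3.0957 FPKM treated and 2.78 and 3.0965 FPKM untreated. Its log2 change was 0.98 in replicate 1 and 0.07 in replicate 2. AARSD1 was listed at 0 in fluorouracil replicate 1 and in both untreated libraries and at 29.3 FPKM in fluorouracil replicate 2.

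Other genes of the integrated stress response, the programme that ATF4 carries out, were read from a list of their own. Of 26 tested genes, 18 had higher and 2 lower values in both treated libraries, against 24.4% and 19.3% of all genes. An unadjusted limma p below 0.05 was found for 5, beside 3.21% of all genes, and 0 passed after adjustment. The median log2 change was 0.29 in replicate 1 and 1.16 in replicate 2, or 0.25 and 0.47 after removal of the trend. Over all genes the medians were 0.01 and 0.19, and below 0 in both after that removal. ATF4 itself had 172 and 416 FPKM treated, against 132 and 142 FPKM untreated. ASNS, the asparagine synthetase of amino acid metabolism and a classical ATF4 target, had 114 and 168 FPKM treated, against 82.4 and 95.8 FPKM untreated, and PSAT1, of serine synthesis, 93.6 and 107 FPKM treated, against 70.4 and 76.4 FPKM untreated. Both groups of values were apart in each of these 3 genes.

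ATF3, a stress-induced transcription factor, had 17.1 and 14.5 FPKM treated, against 2.54 and 2.05 FPKM untreated. Its values were alike in both treated libraries, and its log2 change was the largest of this list, at 2.73 (SE 0.30, limma adjusted p = 0.671). The lowest was that of SLC7A11, a cystine transporter, with 27.4 and 11.2 FPKM treated, against 28.6 and 29.7 FPKM untreated (log2 change -0.73, SE 0.51, limma adjusted p = 0.671). SESN2, a leucine sensor upstream of mTORC1, had 8.89 and 19.3 FPKM treated, against 3.03 and 3.61 FPKM untreated, and CHAC1, a glutathione-degrading enzyme, 10.4 and 49.2 FPKM treated, against 4.37 and 4.89 FPKM untreated. TRIB3, a pseudokinase that restrains ATF4, overlapped, with 18.1 and 76.5 FPKM treated and 20.6 and 23.5 FPKM untreated. XPOT, which exports tRNA from the nucleus, had lower values of 74.2 and 38.8 FPKM treated, against 84.0 and 80.9 FPKM untreated. In replicate 1 SESN2 and CHAC1 had log2 changes of 1.40 and 1.15 and ASNS one of 0.36, and CARS at 0.25 was the highest of the 20 chosen cytosolic synthetases. These differences between genes were not tested.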

How the data were processed

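The authors deposited 1 table of 33117 rows, each holding a symbol and the FPKM of 4 libraries. The submitters' processing notes name TopHat2 2.1.0, Cufflinks 2.2.1 and the builds hg38 and mm10, with no roles; neither the annotation, the strandedness nor a scaling across libraries is given in the sources used here. A deposited value has a median of 6 significant digits in fluorouracil replicate 2 and of 16 in the others. Fragment counts are unknown, and no interval for counting error is given. Low values gave relative depths of 1.02 for fluorouracil replicate 1 and 1.05 for untreated replicate 2 against untreated replicate 1 (18.9% and 18.5% of rows at 1 ratio), and none for fluorouracil replicate 2.

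Rows with a number for a symbol (28) and further rows of a symbol (3094, by the highest mean) were left out. Genes whose mean reached 1 FPKM were tested by limma 3.58.1 in R 4.3.3 on log2(FPKM + 0.1), two-sided, with a trended prior variance, 2 residual degrees of freedom and Benjamini-Hochberg adjustment over 12460 genes. Such fold changes understate those of low genes. Changes of single libraries are against the mean log2 value of both untreated libraries. GC content and length are those of the longest coding transcript in GENCODE 29 (94.3% of tested genes had both), and their trend was removed by loess (span 0.3) over 10965 protein-coding genes. On simulated data for fluorouracil against untreated cells (12460 genes, 200 changed, 5 runs), limma recovered 98.2% of genes changed 4-fold with alike libraries. It recovered 0% of genes changed 4-fold or 16-fold when 1 treated library took the deviations of fluorouracil replicate 2, shuffled across genes. The shuffle breaks their link with GC content and level, so the 0% does not describe the synthetases themselves. Members, lists and tests were chosen with earlier results of these data known. Values are given for the 8 cytosolic and 5 mitochondrial genes with the smallest p, the highest and lowest in level, the 3 widest same-amino-acid pairs and fixed partner genes; other synthetases and partner genes were named after their values were seen. GATB was on the list of partner genes but had no row under that symbol, so it was not analysed here. With no separate cultures stated, a p-value reflects no more than library-to-library spread.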

Additional observations from a re-analysis of the deposited data

How the results depend on the processing

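No synthetase passed the adjusted limma threshold in any setting that kept fluorouracil replicate 1. Without it most synthetases passed, as did most of all genes tested. That fit compares fluorouracil replicate 2 alone with the untreated libraries and assumes that it varies as they do. The number of genes called over the whole table was 0, from 0 to 8344 when 1 library was left out (17 without fluorouracil replicate 2, 8344 without replicate 1), and 672 without fluorouracil replicate 2 and after removal of the GC and length trend from the other 3. With the replicate number as a block it was 338, and the replicate block with the trend removed gave 0. The 338 rest on a variance pooled across genes. Same-numbered libraries deviated with a correlation of -0.048 across genes. That value cannot say whether they were prepared together, because fluorouracil replicate 2 stands apart from every other library. The labels give only the number. The common sum of FPKM and the trend removal without fluorouracil replicate 2 were chosen after seeing the data. The cytosolic median of 0.33 was 0.016 after quantile normalization, -0.06 with the trend removed and -0.10 with a common sum, and ranged from -0.03 to 0.69 with 1 library left out. The difference of the medians, 0.35, was 0.10 after quantile normalization, 0.16 with the trend removed and 0.0014 with fluorouracil replicate 2 also left out, and ranged from -0.01 to 0.67 with 1 library left out. The mitochondrial median of -0.01 was -0.080 after quantile normalization, -0.060 after median centring, -0.23 with the trend removed (also with the block), -0.060 with the trend removed and fluorouracil replicate 2 left out, and -0.44 with a common sum; it ranged from -0.024 to 0.061 with 1 library left out. The count of cytosolic genes higher in both treated libraries, 8, was 5 after median centring, 3 with the trend removed (with or without the block, and without fluorouracil replicate 2), 4 with a common sum, and 8 to 12 with 1 library left out. The mitochondrial count, 3, was 1 with the trend removed, with or without the block, 1 with a common sum, and 4 to 7 with 1 library left out. The share of all genes that were higher moved too: it was 24.4% as reported, 22.4% after median centring, 18.8% with the trend removed, 12.8% with a common sum, 39.0% without fluorouracil replicate 2, 32.8% without it and the trend, and 52.9% without fluorouracil replicate 1.

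The sign of the log2 change was kept in all 17 alternatives by 21 of 36 synthetases, 9 of them above 0. After removal of the GC and length trend, with or without the block, it turned to -0.17 for VARS, -0.31 for FARSA, -0.28 for AARS2, -0.0077 for CARS2, -0.28 for HARS2, -0.056 for PARS2, -0.23 for SARS2, 0.070 for WARS2 and -0.36 for AIMP2. With fluorouracil replicate 2 also left out it was 0.049 for EPRS, -0.12 for VARS, -0.22 for WARS, -0.15 for FARSA, -0.039 for CARS2, -0.11 for FARS2, -0.017 for HARS2, -0.15 for SARS2, 0.10 for WARS2, -0.26 for AIMP2, -0.16 for EEF1E1, 0.036 for GATC, -0.32 for TRIB3 and -0.058 for TUFM. With a common sum it was -0.069 for GARS, -0.036 for VARS, -0.12 for WARS, -0.065 for FARSA, -0.21 for AARS2, -0.42 for HARS2, -0.027 for PARS2, -0.23 for AIMP2 and -0.12 for MTFMT. Quantile normalization gave -0.0083 for GARS, -0.10 for HARS2 and -0.035 for AIMP2, and median centring -0.042 for HARS2. With 1 library left out in turn, the change ranged from -0.75 to 0.076 for EPRS, -0.12 to 0.029 for KARS, -0.10 to 0.89 for VARS, -0.16 to 0.78 for WARS, -0.092 to 0.82 for FARSA, -0.038 to 1.31 for FARS2, -0.062 to 0.072 for HARS2, -0.25 to 0.011 for LARS2, -0.089 to 1.02 for SARS2, -0.19 to 0.13 for WARS2, -0.21 to 0.064 for YARS2, -0.19 to 0.59 for AIMP2, -0.17 to 1.15 for EEF1E1, -1.47 to 0.066 for GATC and -0.28 to 1.79 for TRIB3. Of 22 other named genes recomputed, 4 passed in settings that kept fluorouracil replicate 1. Under the block the SE was 0.588, 0.576 and 0.583 for ATF3, CHAC1 and SESN2, against 0.302, 0.811 and 0.473 in the main fit. Those near-equal values come from a variance pooled across genes, and the labels do not give the pairing. With that pooling the limma adjusted p under the block was 0.000254 for ATF3, 0.00438 for CHAC1 and 0.0327 for SESN2. Without fluorouracil replicate 2 and the trend it was 2.04e-05 for ATF3, 0.00583 for CHAC1, 0.00237 for SESN2 and 0.0134 for DDIT3. Over all alternatives the limma adjusted p ran from 2.04e-05 to 0.99998 for ATF3, 0.00177 to 0.99998 for CHAC1, 0.00237 to 0.99998 for SESN2 and 0.00238 to 0.99998 for DDIT3. PPP1R15A was not among the 22 genes, so the 4 are not a full account of the stress response list. The cause of the turns in sign was not tested.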

Other observations

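Translation factors of the cytosol and of mitochondria were read as further lists. Of 14 tested cytosolic factors, 4 had higher and 2 lower values in both treated libraries, beside 24.4% and 19.3% of all genes. The median of their log2 changes was -0.01 for fluorouracil replicate 1; for replicate 2 it was 0.36, or -0.30 without the GC and length trend. EEF1A1, the elongation factor that carries aminoacyl-tRNA to the ribosome, had 4717 and 2483 FPKM treated, against 5046 and 4946 FPKM untreated. EEF1D, an exchange factor for it, had 112 and 755 FPKM treated, against 98.1 and 107 FPKM untreated. Of 10 mitochondrial factors, 2 had higher and 3 lower values, beside the same shares, with medians of 0.04 in replicate 1 and -0.36 in replicate 2, and of 0.0034 in replicate 2 without the trend. TUFM, the mitochondrial counterpart of EEF1A1, overlapped, with 99.4 and 243 FPKM treated and 102 and 96.3 FPKM untreated. GFM1, a mitochondrial elongation factor, had 28.6 and 16.8 FPKM treated, against 39.4 and 34.3 FPKM untreated. MTIF3, an initiation factor, had 23.8 and 59.9 FPKM treated, against 18.8 and 22.4 FPKM untreated. No gene of either list passed the test.

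EIF4A1, the cap-complex helicase that growing cells use, was listed at 513 FPKM in fluorouracil replicate 2 and at 0 in the other 3 libraries. It is one of 32 genes with at least 10 FPKM in that library and 0 in the others; the same count was 1 for fluorouracil replicate 1 and 0 for each untreated library.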
